A study of Rattus norvegicus with 15 samples.

Results

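The genes described here move, store or bind iron, copper and zinc: ferritin heavy chain (Fth1), ferritin light chain (Ftl1), transferrin (Tf), the transferrin receptor (Tfrc), the divalent metal transporter Slc11a2, ceruloplasmin (Cp) and metallothionein 3 (Mt3). All probe sets whose platform annotation names 1 of these 7 genes were taken, which gave 14 of the 8799 probe sets on the array. Each probe set combines several short probes designed against 1 reference sequence. Of the 14, 8 were annotated to a single gene (Slc11a2, Cp, Tfrc or Mt3). The other 6 list their gene beside others: 3 name Tf and Srprb, 1 names Fth1 and its pseudogene Fth1-ps5, and 2 name Ftl1 with Ripor2, Ftl1-ps14, LOC100362384, LOC100360087, Ftl1l1, Ftl1l2 and Ftl1l5, of which rc_AI231807_at also names Ftl1l7. These 6 probe sets are given by their ID, since their signal cannot be assigned to 1 gene.

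Neurons of 2 neighbouring regions of the rat midbrain were cut out by laser capture, and their RNA was measured on a rat Affymetrix array, with 8 arrays for the substantia nigra pars compacta (SNc) and 7 for the ventral tegmental area (VTA). The labels give no age, sex, strain or treatment and do not say how neurons were recognised or how many animals were used. Spread between arrays, the only error that enters the p-values, may thus be partly technical. The title of the series points to Parkinson's disease, a disorder that hits the dopamine neurons of the SNc harder than those of the VTA.

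Iron enters most cells when transferrin in the blood or tissue fluid binds its receptor, is taken into endosomes and releases iron, which Slc11a2 carries into the cytosol. There it is used or stored inside ferritin, a shell of heavy chains that oxidise iron and light chains that help it to mineralise. Ceruloplasmin is a copper enzyme that oxidises iron as it leaves cells, and Mt3 is the brain's own metallothionein, a small cysteine-rich protein that binds zinc and copper. In the brain, transferrin is made mainly by oligodendrocytes and the choroid plexus, and iron accumulates with age in the substantia nigra.

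Each array's median intensity lay between 37.9 and 45.2 in SNc, with a median of 41.3, and between 42.2 and 46.7 in VTA, with a median of 45.8. The median correlation of an array with the others ran from 0.910 to 0.941, and the lowest belonged to VTA 5 (0.910) and VTA 8 (0.919). All 6 dopamine neuron markers lay above the filter on low values, among them Th, tyrosine hydroxylase, at 6615 ± 527 in SNc and 7193 ± 770 in VTA (SD, n = 8 and 7). Markers of other cells were also examined. The filter keeps 5244 of 8740 probe sets by design, so a count above it does not by itself show that a cell type was captured. Of the genes with a probe set, 7 of 7 oligodendrocyte markers, 7 of 8 astrocyte markers, 4 of 8 microglia markers, 5 of 6 vessel and blood markers, 3 of 4 choroid plexus and ependyma markers and 4 of 4 GABA neuron markers lay above it. Of all these markers, Gad1 and Pvalb, of GABA neurons, passed the test between the regions, both higher in SNc (1.45 and 1.34 on the log2 scale, limma adjusted p = 0.00154 and 0.0282). The other GABA neuron markers, Gad2 and Slc32a1, did not (0.23 and 0.07, limma adjusted p = 0.723 and 0.901). Over all 3221 genes tested, 2.17% passed. In these captures, fewer cells of a type and less RNA per cell cannot be told apart.

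None of the metal-handling probe sets differed between SNc and VTA past the threshold. Of the 14, 10 lay above the filter, which removed the dimmest 40% by mean log2 signal (below an intensity of about 26.3). Of these 10, 0 passed in limma at an adjusted p of 0.05, where 1.98% of the 5244 probe sets tested did, and 1 had an unadjusted p under 0.05, where 15.4% of all did. The exact Wilcoxon test also gave 0, where it called 67 of the 5244 probe sets tested. Without the filter 0 of the 14 passed, where 1.16% of 8740 did. The SNc and VTA arrays overlapped for every one of the 14, where the regions did not overlap in 0.858% of the probe sets tested. Differences are given as SNc minus VTA, in log2 of the intensity plus 16. Their median over the 10 was -0.09, against -0.04 over all probe sets tested, and 7 were negative and 3 positive. When each array was centred on its own median, which raises all differences alike, the split was 5 and 5 and the median 0.00, against 0.05 over all probe sets tested. For 8 of the 10, the 95% confidence interval lay within a 2-fold change in either direction on this scale, which shrinks the differences of dim probe sets. The exceptions were an Srprb/Tf probe set, whose interval reached -1.02, and an Slc11a2 probe set, whose interval reached 1.07.

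**Figure D1:**
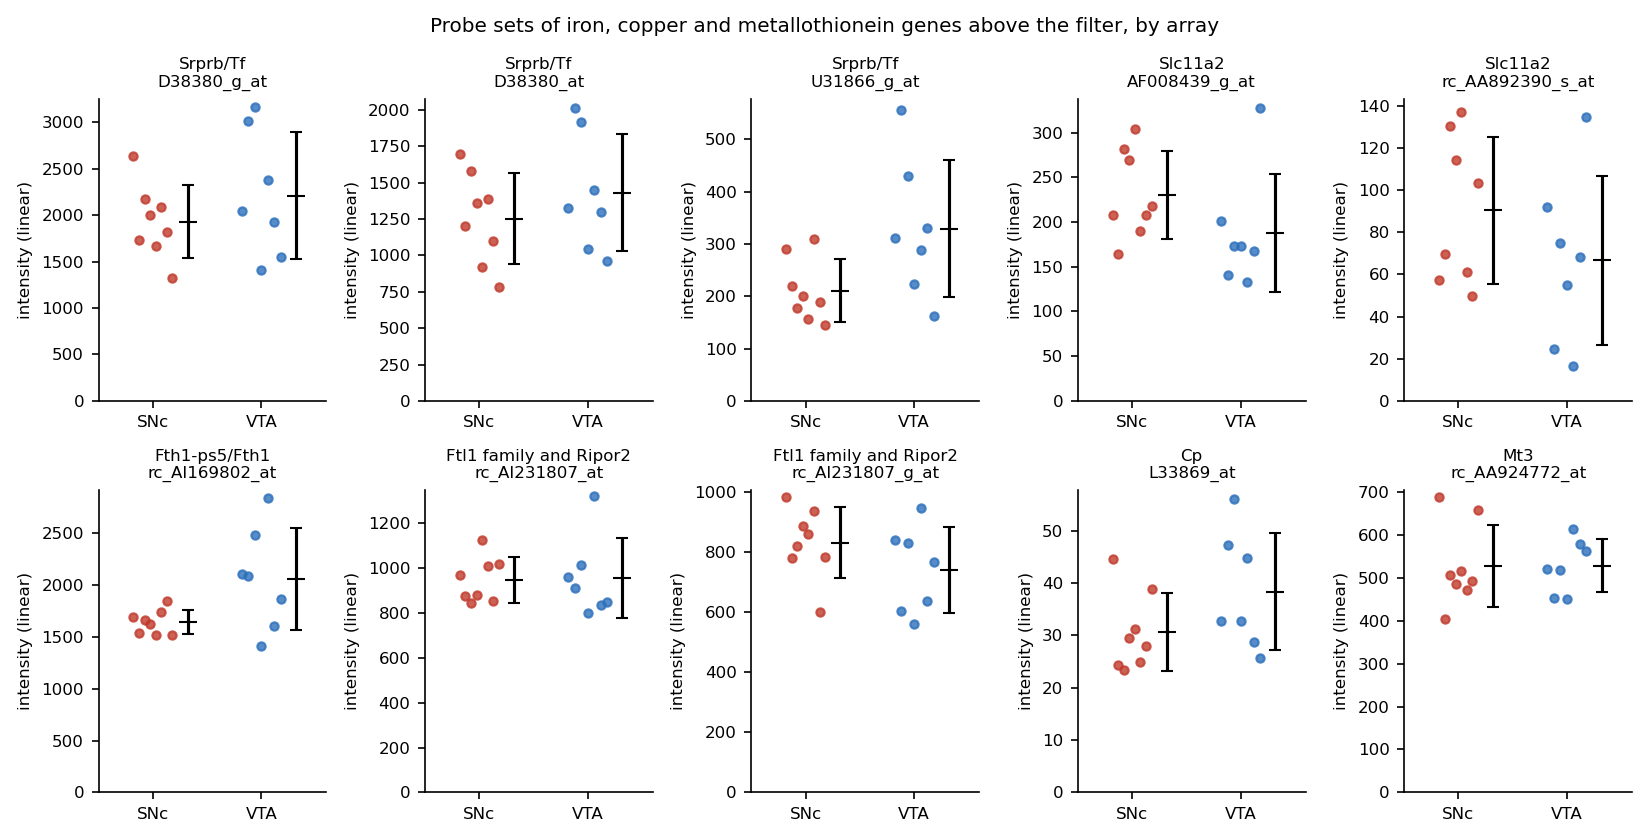
Linear intensity of the 10 probe sets above the filter, 1 point an array, with SNc left of VTA. Black bars give the mean and SD. The SNc and VTA points overlap in every panel, and the VTA points spread more widely than the SNc points for the Fth1-ps5/Fth1 probe set.

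**Figure D2:**
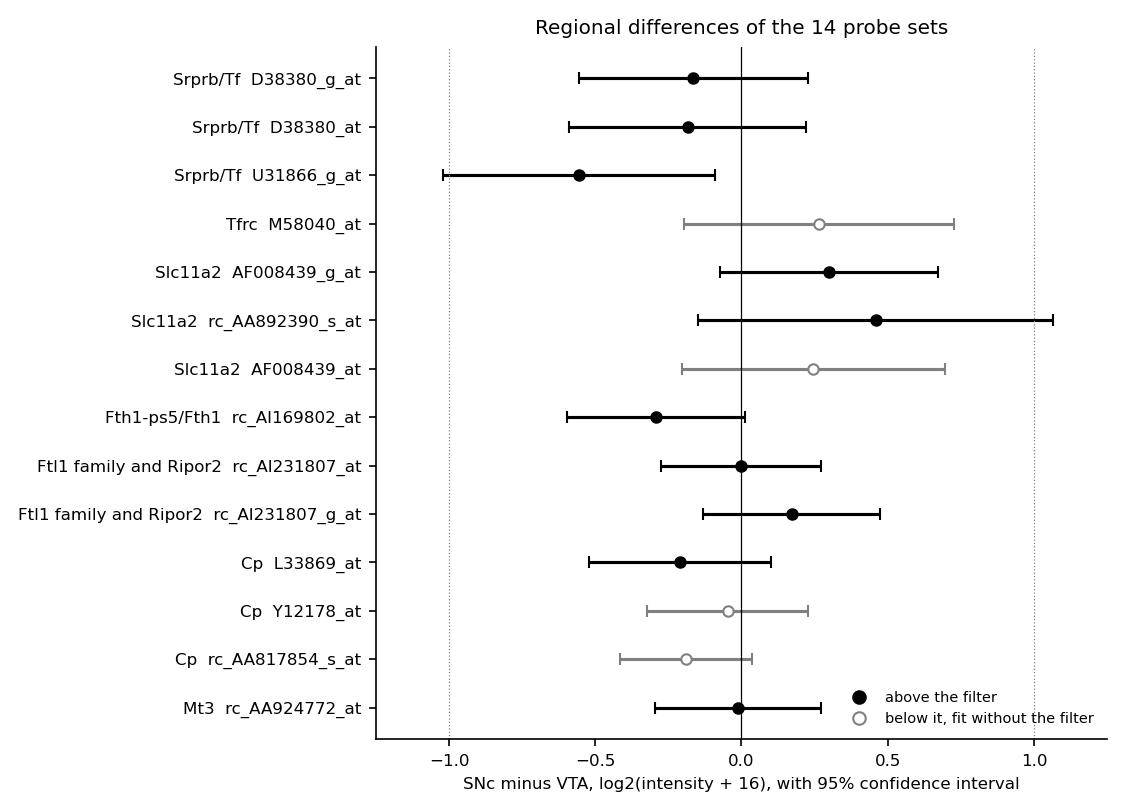
Difference between SNc and VTA for the 14 probe sets, on the log2(intensity + 16) scale, with 95% confidence intervals from limma. Filled points lay above the filter, open points are from a fit without it, and dotted lines mark a 2-fold change. All but 1 of the intervals cross 0.

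Transferrin, the iron carrier, could be followed only through 3 probe sets that also name Srprb, a subunit of the receptor for the signal recognition particle. The brightest, D38380_g_at, ran from 1322 through a median of 1908 to 2631 in SNc, and from 1410 through 2049 to 3159 in VTA. The 2 arrays with the highest signal were VTA 3 and VTA 2, and the 2 with the lowest were SNc 8 and VTA 4, so the regions overlapped over most of their range. The difference was -0.16 (SE 0.19, limma adjusted p = 0.723). Its partner D38380_at, from the same reference sequence, gave -0.18 (SE 0.19, limma adjusted p = 0.699) and followed it closely over the 15 arrays (r = 0.957). Single arrays moved both values: D38380_g_at gave -0.09 without SNc 8, -0.08 without VTA 2, -0.07 without VTA 3 and -0.26 without VTA 4. D38380_at gave -0.09 without SNc 8 or without VTA 2 and -0.11 without VTA 3, but -0.25 without SNc 1 or without VTA 4 and -0.27 without VTA 8. With median centring the differences were -0.07 for D38380_g_at and -0.09 for D38380_at, and with quantile normalization -0.25 and -0.24.

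The last Srprb/Tf probe set, U31866_g_at, had the largest difference of the 10. It lay at 211 ± 60.02 in SNc and 329 ± 131 in VTA (SD, n = 8 and 7), with SNc values from 144 to 309, around a median of 194, and VTA values from 163 to 556, around a median of 311. All 8 SNc arrays lay below the VTA median, and 4 VTA arrays lay above the highest SNc array. The difference was -0.56 (SE 0.22, 95% interval -1.02 to -0.09), or 0.680-fold, and missed the threshold over all probe sets (limma adjusted p = 0.225), although it was the 1 probe set of the 10 under 0.05 before adjustment. Without VTA 8, the lowest VTA array, it was -0.70 (adjusted p = 0.0888), and without VTA 2, the highest, -0.42. This probe set correlated with D38380_at and D38380_g_at at r = 0.822 and 0.809 over the 15 arrays, and the sizes of the 3 differences were not tested against each other.

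Over the arrays, the Srprb/Tf probe set D38380_g_at moved with the summed markers of oligodendrocytes, the myelin-forming cells. The summed intensity of the 7 oligodendrocyte markers (Mbp, Mobp, Mag, Mog, Cnp, Mal and Ugt8) ran from 6184 through a median of 8043 to 10342 in SNc, and from 8436 through 9977 to 12748 in VTA. D38380_g_at correlated with this sum at r = 0.811 (Spearman rho = 0.779) over the 15 arrays on the log2 scale (two-sided permutation p = 0.00026 and 0.00082, adjusted over 5 relations 0.0013 and 0.0041). Without SNc 5 and VTA 3, the 2 arrays farthest from the median of the sum, r was 0.782. Within VTA r was 0.963 (rho = 0.964, n = 7, exact permutation p = 0.000397 and 0.00278, adjusted over 10 relations 0.00397 and 0.0278). Within SNc r was 0.765 (rho = 0.738, n = 8, exact permutation p = 0.0278 and 0.0458, adjusted 0.0928 and 0.115), which missed the threshold after adjustment.

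The 2 brightest markers set most of this sum. Mbp, myelin basic protein, averaged 3784 ± 899 in SNc and 4838 ± 983 in VTA, and Mobp, another myelin protein, 2168 ± 642 and 3064 ± 741 (SD, n = 8 SNc and 7 VTA). D38380_g_at correlated with them at r = 0.762 and 0.694, against 0.267 to 0.429 for the other 5 markers. For D38380_at r ran from 0.063 with Mog to 0.827 with Mbp, and for U31866_g_at from 0.080 with Mag to 0.883 with Mbp. The relation was thus mainly one with Mbp and Mobp. Mbp and Mobp had negative differences (-0.36 and -0.53) that missed the threshold, as the Srprb/Tf probe sets did. The part of captured oligodendrocyte RNA in the Srprb/Tf values was not tested. With the choroid plexus and ependyma markers Ttr, Kl and Igf2, whose sum ran from 163 to 243 in SNc and 211 to 285 in VTA, D38380_g_at had r = -0.05 (rho = -0.21, permutation p = 0.86 and 0.444, adjusted 0.86 and 0.739), and r = -0.11 without SNc 2 and SNc 3.

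**Figure D3:**
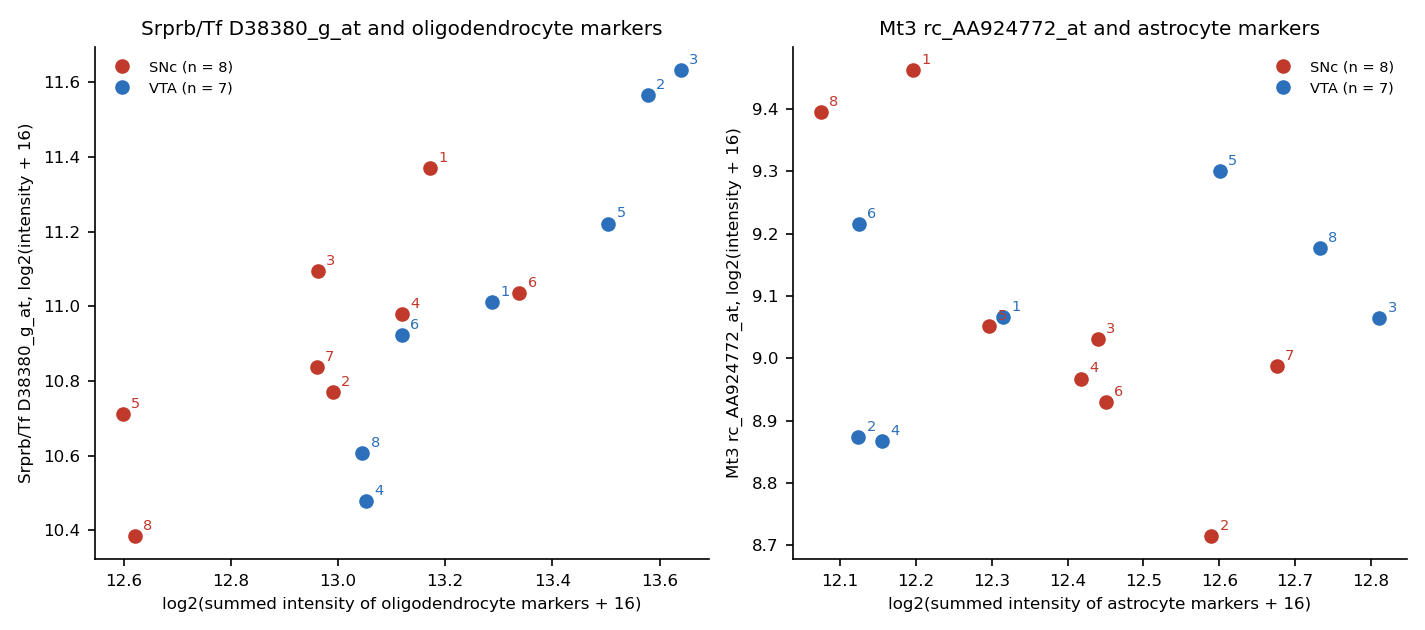
Left, the Srprb/Tf probe set D38380_g_at against the summed intensity of 7 oligodendrocyte markers. Right, the Mt3 probe set against the summed intensity of 7 astrocyte markers. Both axes are log2(intensity + 16), each point is an array, and numbers are the replicate numbers. The left points have r = 0.811 over 15 arrays. Within VTA r is 0.963, which passed after adjustment, and within SNc 0.765, which missed the threshold. The right points have r = -0.83 in SNc and 0.48 in VTA, neither past the threshold after adjustment.

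Tfrc, the receptor that takes up transferrin, was at the low end of the array in both regions. Its only probe set, M58040_at, ran from 4.56 through a median of 22.0 to 27.6 in SNc, and from 1.89 through 17.4 to 32 in VTA. Its mean log2 signal lay below the filter, so it was left out of the test, and 2 of the 15 arrays were above 26.3. In a fit without the filter the difference was 0.26 (95% interval -0.20 to 0.73, limma adjusted p = 0.65).

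Slc11a2, which carries iron out of endosomes, had 3 probe sets, of which 2 lay above the filter. AF008439_g_at ran from 164 through a median of 212 to 304 in SNc, and from 133 through 173 to 327 in VTA. Of the SNc arrays 7 lay above the VTA median, but the highest array of all was VTA 8. The difference was 0.30 (SE 0.18, 95% interval -0.07 to 0.67, limma adjusted p = 0.443), or 1.23-fold.

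The second, rc_AA892390_s_at, varied most of the 10. It lay at 90.5 ± 34.9 in SNc and 66.65 ± 40.25 in VTA (SD, n = 8 and 7). In SNc it ran from 50 to 137, with SNc 5, 3, 4 and 8 highest, and in VTA from 16.8 to 135, with VTA 8 highest and VTA 2 and VTA 5 lowest. The difference was 0.46 (SE 0.29, 95% interval -0.15 to 1.07, limma adjusted p = 0.477). The highest arrays of both regions thus lay at nearly the same value. Without VTA 5 the difference was 0.26, with an offset of 64 it was 0.27, and without VTA 8 it was 0.63. Both probe sets followed each other over the 15 arrays (r = 0.874, and 0.854 after each region's mean was subtracted), so the variation between arrays was shared by both. The dim remaining probe set, AF008439_at, averaged 24.6 in SNc and 18.25 in VTA and gave 0.25 without the filter, in the same direction.

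The ferritin heavy chain probe set, rc_AI169802_at, annotated to Fth1-ps5 and Fth1, was bright in both regions and spread more widely in VTA. In SNc it ran from 1517 through a median of 1642 to 1848, with a mean of 1641 ± 118.5 (SD, n = 8). In VTA it ran from 1415 through 2089 to 2838, with a mean of 2058 ± 491 (SD, n = 7). The coefficient of variation was 7.22% in SNc and 23.9% in VTA, and 5 of the 7 VTA arrays lay above the highest SNc array while VTA 4 lay below the lowest. The difference was -0.29 (SE 0.15, 95% interval -0.60 to 0.01), or 0.817-fold, and missed the threshold (limma adjusted p = 0.343). It was -0.21 without VTA 5, the highest array, and -0.37 without VTA 4, the lowest. With median centring the difference was -0.20 and with quantile normalization -0.34.

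Of 3218 other genes, those whose signal was most like rc_AI169802_at over the 15 arrays were Apod, a lipid-binding apolipoprotein of glia (r = 0.857), Hbb, the beta chain of haemoglobin (r = 0.829), and Cnpy2 (r = 0.781). They were picked for these values, and Spearman's rho was lower, from 0.618 to 0.739. Hbb, which is on the list of vessel and blood markers, averaged 174 ± 75.1 in SNc and 437 ± 430 in VTA (SD, n = 8 and 7). The sum of the 5 vessel and blood markers ran from 426 through a median of 792 to 1056 in SNc, and from 582 through 1103 to 2149 in VTA. The source of the Hbb signal and the part of blood RNA in the ferritin value were not tested.

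The light chain of ferritin had 2 probe sets, whose annotation also names the Ftl1-like genes and Ripor2 given above. For rc_AI231807_at the means were close, at 947 ± 101 in SNc and 955 ± 177 in VTA (SD, n = 8 and 7), with a difference of -0.00 (SE 0.13, 95% interval -0.28 to 0.27, limma adjusted p = 0.996). Its SNc values ran from 843 to 1124 and its VTA values from 801 to 1319, with VTA 5 above all other arrays. Its partner rc_AI231807_g_at ran from 600 through a median of 842 to 985 in SNc, and from 562 through 768 to 949 in VTA, and gave 0.17 (SE 0.15, limma adjusted p = 0.608). It was 0.11 without VTA 4 and 0.26 with median centring or without VTA 5 and VTA 8. Of the SNc arrays 7 lay above its VTA median.

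VTA 5 was thus the highest array for rc_AI169802_at, of the heavy chain, and for rc_AI231807_at, of the light chain, but rc_AI231807_g_at was highest in SNc 1 (985), with VTA 5 at 949. The ratio between both chains was not tested. The genes most like rc_AI231807_at were Ndufb8, a subunit of respiratory complex I (r = 0.823), Rpl14, a ribosomal protein (r = 0.782), and Paqr3 (r = 0.777). Their Spearman's rho was 0.679, 0.789 and 0.582. Ferritin is also abundant in microglia. The sum of the 4 microglia markers above the filter (Ptprc, Cx3cr1, Ctss and Lyz2) ran from 832 to 1577 in SNc and 732 to 2015 in VTA, and its correlation with rc_AI231807_at was r = 0.15 (rho = 0.06, permutation p = 0.598 and 0.823, adjusted 0.747 and 0.823), and 0.19 without SNc 7 and VTA 3. Within SNc r was -0.43 and within VTA 0.48, and neither passed in the exact permutation test (n = 8 and 7, adjusted p = 0.356 for both). Ctss, with a mean of 973 in SNc and 843 in VTA, made up most of the sum. Aif1, Itgam, C1qb and Csf1r lay below the filter.

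Cp, the copper enzyme that oxidises iron on its way out of cells, was dim on all 3 of its probe sets. L33869_at, the only one above the filter, ran from 23.4 through a median of 28.8 to 44.5 in SNc, and from 25.7 through 32.8 to 56.0 in VTA. The 3 highest arrays were VTA 3, VTA 2 and VTA 5, and 3 SNc arrays lay below the lowest VTA array. The difference was -0.21 (SE 0.15, 95% interval -0.52 to 0.10, limma adjusted p = 0.54). It was -0.14 without VTA 3, -0.11 with quantile normalization or with an offset of 64, and -0.12 with median centring. Other alternatives moved it away from 0, to -0.30 with an offset of 1 and -0.27 with array weights or without VTA 8.

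The other Cp probe sets lay below the filter. In a fit without it, Y12178_at gave -0.05 (limma adjusted p = 0.924), at 24.35 ± 7.06 in SNc and 25.7 ± 7.56 in VTA, and rc_AA817854_s_at gave -0.19 (limma adjusted p = 0.463), at 4.03 ± 1.74 in SNc and 7.03 ± 3.77 in VTA. L33869_at correlated with rc_AA817854_s_at at r = 0.649 but with Y12178_at at 0.237, so the 3 did not rank the arrays alike. The genes most like L33869_at were RT1-Da, a class II histocompatibility chain of antigen-presenting cells (r = 0.822), Or2c1 (r = 0.766) and Phkg1 (r = 0.730). With the choroid plexus and ependyma markers r was 0.35 (rho = 0.41, permutation p = 0.199 and 0.132, adjusted 0.498 and 0.33), and 0.03 without SNc 2 and SNc 3. Within SNc it was 0.68 and within VTA -0.53, and neither passed in the exact permutation test (n = 8 and 7, adjusted p = 0.173 and 0.356).

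Mt3, the metallothionein of the brain, had nearly the same mean in both regions. Its probe set, rc_AA924772_at, ran from 404 through a median of 499 to 689 in SNc, and from 451 through 520 to 615 in VTA. The 2 highest arrays, SNc 1 and SNc 8, and the lowest, SNc 2, were all SNc, so the VTA values lay inside the SNc range. The means were 528 ± 96.45 in SNc and 528 ± 61.8 in VTA (SD, n = 8 and 7). The difference was -0.01 (SE 0.14, 95% interval -0.30 to 0.27, limma adjusted p = 0.976), which leaves room for changes of 0.814-fold to 1.21-fold.

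Mt3 is made by neurons and by astrocytes, and its signal was set against the 7 astrocyte markers above the filter (Aqp4, Slc1a2, Slc1a3, Glul, S100b, Aldoc and Fabp7). Their sum ran from 4297 through a median of 5498 to 6528 in SNc, and from 4449 through 5079 to 7169 in VTA. Aldoc, S100b and Glul made up most of it, with means of 2200, 1344 and 1310 in SNc and 2054, 1499 and 1319 in VTA. Over the 15 arrays r was -0.20 (rho = -0.09, permutation p = 0.466 and 0.744, adjusted 0.747 and 0.823), and -0.07 without SNc 8 and VTA 3. Within SNc it was -0.83 (rho = -0.79, n = 8, exact permutation p = 0.0142 and 0.0279, adjusted over 10 relations 0.0708 and 0.115), and within VTA 0.48 (rho = 0.25, n = 7, exact permutation p = 0.266 and 0.595, adjusted 0.356 and 0.661). Neither passed after adjustment, and the gap between the regions was not tested. The genes most like Mt3 were Pcbp4, an RNA-binding protein (r = 0.769), Cox8a, a subunit of cytochrome c oxidase (r = 0.741), and LOC102549726 (r = 0.739).

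Metallothionein genes are known for metal response elements before their start sites, where the zinc-sensing factor Mtf1 binds. The 250 bases before the start of Mt3 and of its family members Mt1 and Mt2A, which lie near it on chromosome 19, are printed here to show how the family members differ in these elements. They are RefSeq sequences of build GRCr8, all on the minus strand and written 5′ to 3′ for the gene: Mt3 at chr19:10856081-10856330, Mt1 at chr19:10832976-10833225 and Mt2A at chr19:10838709-10838958. Capitals mark matches on either strand to TGCACNC or TGCGCNC, which together spell the core of the element.
Mt3: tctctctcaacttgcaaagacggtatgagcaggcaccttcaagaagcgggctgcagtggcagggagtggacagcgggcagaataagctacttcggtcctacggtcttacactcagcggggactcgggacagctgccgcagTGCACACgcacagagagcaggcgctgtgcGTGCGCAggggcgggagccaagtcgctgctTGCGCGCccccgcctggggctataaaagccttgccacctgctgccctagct
Mt1: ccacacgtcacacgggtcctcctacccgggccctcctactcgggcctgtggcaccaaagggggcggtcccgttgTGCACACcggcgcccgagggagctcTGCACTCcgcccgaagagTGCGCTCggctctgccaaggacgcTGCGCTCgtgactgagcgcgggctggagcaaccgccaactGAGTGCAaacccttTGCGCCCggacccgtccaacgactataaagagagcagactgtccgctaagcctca
Mt2A: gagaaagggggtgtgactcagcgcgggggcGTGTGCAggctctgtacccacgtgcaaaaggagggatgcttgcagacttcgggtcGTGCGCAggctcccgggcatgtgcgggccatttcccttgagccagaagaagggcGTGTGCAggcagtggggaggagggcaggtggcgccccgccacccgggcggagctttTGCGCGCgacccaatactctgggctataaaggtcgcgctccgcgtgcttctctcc
Mt3 held 3 matches, Mt1 6 and Mt2A 4. At least 1 match was present in 20.6% of 33469 windows of this length before rat genes, 3 or more in 1.17%, 4 or more in 0.266% and 6 or more in 0.0269%. A match describes the letters only.

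The signals of the other metallothioneins came from probe sets shared with other genes. The probe set rc_AI102562_at, annotated to Mt1f, Ttr and Mt1, ran from 146 through a median of 174 to 227 in SNc, and from 197 through 212 to 331 in VTA. Only SNc 1 exceeded the lowest VTA array. The difference was -0.36 (SE 0.14, 95% interval -0.64 to -0.08) and missed the threshold (limma adjusted p = 0.197). Since Ttr, transthyretin, is the leading product of the choroid plexus, this value cannot be assigned to a metallothionein. The probe set of Ttr alone lay at 46.4 ± 14.9 in SNc and 58.5 ± 19.9 in VTA (-0.25, limma adjusted p = 0.614). The probe set rc_AI176456_at, annotated to Mt1m and Mt2A, lay at 53.4 ± 19.3 in SNc and 64.9 ± 36.6 in VTA and gave -0.17 (limma adjusted p = 0.777).

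A list of 62 other genes of iron, copper, zinc and metallothionein handling was examined the same way, each by its brightest probe set of a single gene. Of these, 22 had such a probe set and 13 lay above the filter. None of the 13 passed in limma in either direction, where 2.17% of the 3221 genes tested did, and 1 had an unadjusted p under 0.05, where 15.5% did. The median difference was 0.02, against -0.04 over all genes tested, with 7 positive and 6 negative (9 and 4 with median centring).

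Among genes of iron uptake, export and sensing, 0 of 8 passed, where 2.17% of the 3221 genes tested did. App, the amyloid precursor protein, which has been linked to iron export, lay at 1172 ± 350 in SNc and 967 ± 173 in VTA (0.22, SE 0.21, limma adjusted p = 0.655). Hfe, which binds the transferrin receptor, gave 0.15 (SE 0.13), and Aco1, which doubles as the iron sensor IRP1, 0.10 (SE 0.16). Hmox2, the constitutive enzyme of haem breakdown, gave -0.10 (SE 0.16). The rest, Ncoa4, the receptor that delivers ferritin to lysosomes, Prnp, Bmp6 and Hmox1, lay between -0.02 and 0.07. Slc40a1, the iron exporter ferroportin, lay below the filter, at 13.1 ± 10.9 in SNc and 13.2 ± 10.9 in VTA, as did Cybrd1, Lcn2 and Ireb2.

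Of the copper genes 0 of 2 passed, and of the zinc and metallothionein genes 0 of 3, where 2.17% of the 3221 genes tested did. Groups this small cannot be told from all genes tested by such counts. Sod1, the copper and zinc superoxide dismutase, lay at 3290 ± 640 in SNc and 2965 ± 471 in VTA (0.14, SE 0.15, limma adjusted p = 0.712), and Pam, a copper enzyme that amidates peptides, gave -0.15 (SE 0.15). The copper pumps Atp7a and Atp7b lay below the filter, with means from 10.4 to 13.7, and so did Dbh and Lox. Slc30a2, a zinc transporter of vesicles, was the 1 gene with an unadjusted p under 0.05, at 34.3 ± 6.21 in SNc and 44.6 ± 7.19 in VTA (-0.27, SE 0.13, limma adjusted p = 0.311). S100b, a protein that binds calcium and zinc, and Slc30a4, another zinc transporter, gave -0.13 and 0.09, and Slc30a1, the zinc exporter of the cell surface, lay below the filter. S100b is also on the astrocyte list, and it was the gene most like D38380_g_at over the 15 arrays (r = 0.773), ahead of Mbp and Dmac2l (r = 0.759).

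**Figure D4:**
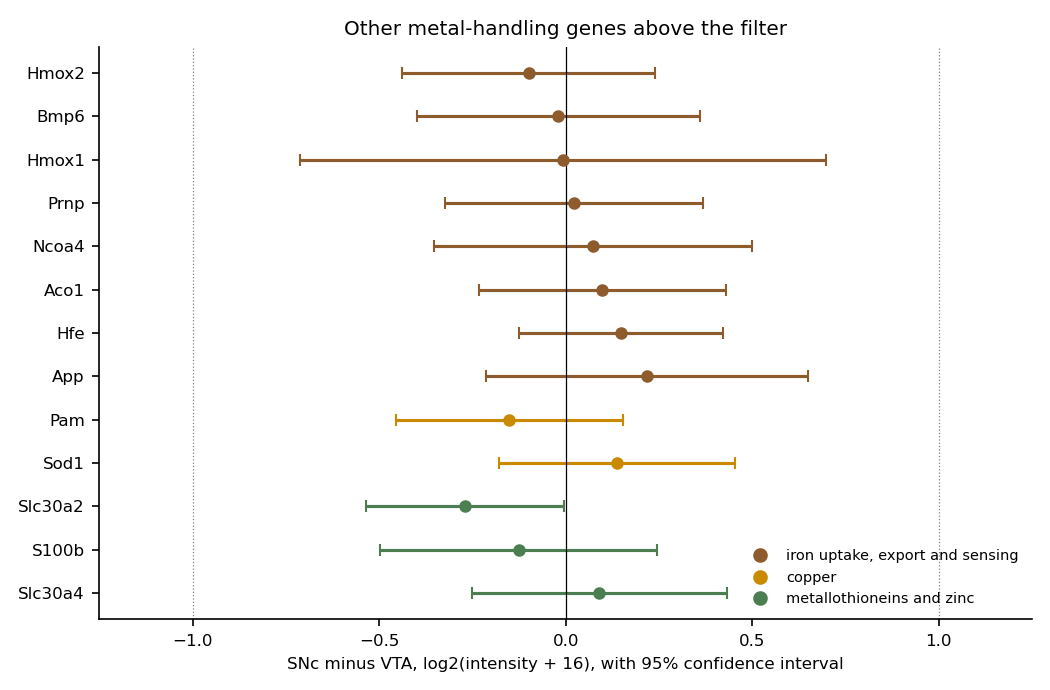
Difference between SNc and VTA for the 13 other metal-handling genes above the filter, on the log2(intensity + 16) scale with 95% confidence intervals. Dotted lines mark a 2-fold change. All 13 intervals lie inside these lines, and that of Slc30a2 is the only 1 that does not cross 0.

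The genes most like Slc11a2 (AF008439_g_at) were Dus1l (r = 0.885), Tnk2, a kinase (r = 0.861), and Sfxn3, a carrier of the inner mitochondrial membrane (r = 0.821). Their Spearman's rho was 0.743, 0.882 and 0.821. After each region's mean was subtracted the values of r were 0.870, 0.828 and 0.813, so the likeness lay within the regions. As the 3 best of 3218 genes over 15 arrays, such values describe these arrays and were not tested.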

How the data were processed

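Total RNA of laser-captured neurons, 8 SNc and 7 VTA arrays, was measured by 1-colour array. The deposited values are linear intensities, 1 per probe set, with a 2% trimmed mean of 150.2 on every array, so the authors had scaled them; the sources used here give no software, background correction or amplification. Groups and replicate numbers came from the sample titles. Members and gene lists were chosen with earlier results of these data known.

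Control probe sets (59) were left out and log2(intensity + 16) was taken, which shrinks differences of dim probe sets. The 40% with the lowest mean were dropped, leaving 5244. SNc minus VTA was fitted with limma 3.58.1 in R 4.3.3 (lmFit, eBayes, two-sided), Benjamini-Hochberg adjusted over all 5244, threshold 0.05. The fit was tested on simulated data. The platform annotation gave 7006 of 8740 probe sets 1 symbol, 308 several and 1426 none. The 7 genes were found in the GRCr8 gene table under the same symbols.

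Of several probe sets of a list gene, the brightest was used. Named were all 14 probe sets, list genes past the threshold, the 4 of smallest p in each of 3 list groups, and the 3 genes of highest Pearson r with each member; others named were chosen after their values were seen. Correlations with marker sums used 100000 permutations, or exact ones within a region, and took the arrays as independent. Alternatives were other offsets, filters, scalings and tests, array weights, the replicate number as a block, and leaving out arrays. The number of arrays limits the precision.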

Additional observations from a re-analysis of the deposited data

Results flagged for a closer look

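Of 28 groups examined (14 probe sets in each region), 2 held 1 array far from the others, where chance gives about 1 in 20 groups. The Slc11a2 probe set AF008439_g_at was 327 in VTA 8, against 133 to 201 in the other VTA arrays. The Ftl1-family probe set rc_AI231807_at was 1319 in VTA 5, against 801 to 1013 in the other VTA arrays. VTA 5 and VTA 8 were also the arrays with the lowest median correlation with the others (0.910 and 0.919). Without both, the difference of AF008439_g_at was 0.38 and that of rc_AI231807_at 0.0633, against 0.30 and -0.00 with them.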

How the results depend on the processing

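In all 27 alternatives, 0 of the metal-handling probe sets and 0 of the list genes passed, and the lowest adjusted p of any member was 0.0888 (U31866_g_at without VTA 8). Of the 10 probe sets tested, 8 kept their direction in every alternative that could be fitted. The exceptions had differences near 0. For Mt3 (rc_AA924772_at) the difference was 0.0795 with median centring and 0.0503 without VTA 5 and VTA 8, and -0.0694 to 0.0373 on leaving out single arrays. For rc_AI231807_at it was 0.0907 with median centring, 0.0187 with the replicate number as a fixed block, 0.000664 as a random block, 0.0358 in the Wilcoxon test and 0.0633 without VTA 5 and VTA 8, and -0.0404 to 0.0776 on leaving out single arrays. The dim Cp probe set fell out under a filter of 60%. Over all probe sets the count of 104 was 60 with an offset of 1, 184 with array weights, 67 in the exact Wilcoxon test and 56 to 115 on leaving out single arrays, more than 1.5 times lower without SNc 2, 3 or 4 or VTA 1, 2, 3, 5 or 6; the cause was not tested.

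With the replicate block the count was 99 as a fixed and 153 as a random effect. Same-numbered arrays correlated at 0.0439 to 0.254 in their deviations, over 0.1 for 5 of 7 numbers. The median correlation of an SNc array with VTA arrays of other numbers ran from -0.0493 to 0.00452, below every same-numbered value. Of 14 arrays, 6 correlated best with their own number. The arrays may thus be partly paired. The labels do not say what a number marks, so the main fit left the arrays unpaired and pairing was only an alternative. The correlation of D38380_g_at with oligodendrocyte markers ran from 0.782 to 0.858 over its 5 alternatives and passed in each. None of these used the replicate number as a block, so they do not cover a partial pairing of the arrays.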
